A study of Saccharomyces cerevisiae with 160 samples.

Results

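The mitochondrial ribosomal protein genes of budding yeast (*Saccharomyces cerevisiae*) were taken as all genes whose symbol is *MRP*, *MRPL* or *MRPS* followed by a number, and 55 of the 5716 yeast probe sets on the array met this rule. Of these, 17 encode proteins of the small mitochondrial subunit, 37 encode proteins of the large subunit, and 1, *MRP8*, carries the name although its product is not a ribosomal protein. A further 25 mitoribosome genes go by other names, such as *PET123* and *RSM19*, and were kept as a list for comparison. Transcript levels had been measured on 160 Affymetrix Yeast 2.0 arrays from 9 cultures of G1 cells, collected by centrifugal elutriation and followed through release and arrest. All strains share the BF264-15DU background and mating type **a**. In *cse4-353* cells (2 cultures of 18 arrays each), which also carry *bar1* and the tubulin marker *CFP-TUB1::URA3*, the construct *Pgal-cse4-353::TRP1* overexpresses a mutant centromeric histone in galactose medium and sets off the spindle checkpoint. In *cdc8* cells (*cdc8-ts*; 2 cultures of 16 arrays each) thymidylate kinase fails at the restrictive temperature in dextrose medium, which sets off the DNA replication checkpoint. In Cdc20-depleted cells (2 cultures, of 14 and 18 arrays), which share *CFP-TUB1::URA3* and *bar1*, the deletion *cdc20::LEU2* is covered by *Pgall-CDC20::ADE2*. Dextrose shuts off this only source of the activator of the anaphase promoting complex, and cells stop in metaphase. The *rad53-1 cdc8 cdc20* cells (2 cultures of 20 arrays each) carry all 4 of these alleles and *cdc8ts* together with *rad53-1*, which takes away the activity of the checkpoint kinase. The *cdc8 cdc20* cells (1 culture of 20 arrays) carry the same alleles without *rad53-1*. Only *cse4-353* cells were followed in galactose medium, so strain, medium and clock time cannot be told apart in comparisons with them. Cells with the *CDC20* construct had been grown in galactose before their release into dextrose. The galactokinase gene *GAL1* began at 8.14 and 8.23 on the log2 scale in *cdc8* cells, against 11.68 and 11.94 in Cdc20-depleted cells, and at 11.52 and 11.09 in *rad53-1 cdc8 cdc20* cells and 10.91 in *cdc8 cdc20* cells. Strain and earlier medium therefore cannot be told apart in the comparison of *cdc8* with Cdc20-depleted cells. A change over the course in the strains with the construct follows a change of medium. In *cse4-353* cells a release into galactose medium set off the spindle checkpoint. Their medium before that release is not known, so a part of the medium in a change over their course cannot be told apart. The paper names a release into the restrictive temperature for *cdc8* and *cdc8 cdc20* cells, so a change over their course follows that too. It states no temperature for *rad53-1 cdc8 cdc20* cells, which carry the same *cdc8* allele and were measured during the DNA replication checkpoint. A part of temperature in a change over their course cannot be told apart either. The paper names no such release for Cdc20-depleted cells, so a part of temperature cannot be told apart in comparisons with them. It lists *cdc8* cells as *BAR1*, where the other strains carry *bar1*.

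The mitochondrial ribosome translates the few messages of the mitochondrial genome, most of which encode core subunits of the respiratory chain and of ATP synthase. Nearly all of its proteins are encoded in the nucleus, made in the cytosol and imported, so that their genes must be expressed in step with ribosomal RNA made inside the organelle. Small subunit proteins surround the decoding centre, and large subunit proteins surround the peptidyl transferase centre and the exit tunnel, which in this ribosome faces the inner membrane. In yeast the genes respond to the carbon source and to growth, and they are a standard example of a group whose transcripts move together.

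Array medians lay between 1020 and 1284 intensity units, and the members spanned 257 to 11305. Log2 correlations between arrays ran from 0.626 to 0.999. The genes that mark the strains followed the labels. *CSE4* stood between 13.5 and 14.6 on the log2 scale in *cse4-353* cells and between 7.2 and 9.0 in the other strains, and *BAR1* stood between 10.8 and 11.9 in *cdc8* cells and between 6.1 and 7.4 elsewhere. *CDC20* stood between 8.69 and 9.32 in the strains with the construct and between 7.22 and 9.59 in the others, so that its level does not check the labels. The last array of each *cse4-353* culture carries different times in its labels and was taken as 345 min. That of the second culture also carries the description of another strain. Neither enters the arrest window of 255 to 330 min. In the first *cse4-353* culture, the arrays at 150, 180 and 270 min stood apart from their neighbours in time in the level of the members. The median of the members on them was 11.37, 11.43 and 11.20, and 42, 46 and 37 of the 55 members lay above both neighbouring arrays, as did 38.2%, 40.4% and 33.2% of all yeast probe sets. Only the array at 270 min enters the arrest window, and counts without it are given below. In RNA from whole cultures, fewer cells with a transcript and less transcript per cell cannot be told apart.

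The median level of the members was higher in the later hours than on the early arrays in *rad53-1 cdc8 cdc20*, *cdc8 cdc20* and *cse4-353* cells, and it moved least in *cdc8* cells. In *rad53-1 cdc8 cdc20* cells, the median log2 level over the 55 members was 10.09 at 18 min and reached its highest value of 11.05 at 252 min in the first culture, and it was 10.28 at 54 min and 10.97 at 288 min in the second. The last arrays were at 10.94 and 10.79. In the *cdc8 cdc20* culture it was 10.31 at 54 min and 10.82 at 162 min, and it had come back to 10.59 on the last array. In *cse4-353* cells it was 10.41 and 10.30 at 90 min, and its highest values were 11.43 at 180 min in the first culture and 11.39 at 240 min in the second. Without the 3 arrays that stood apart, the highest value of the first culture was 11.15, at 210 min. The last arrays were at 10.69 and 11.15. The *cdc8* cells had the flattest profiles of the set. Their median stayed between 10.82 and 10.97 in the first culture and between 10.74 and 11.07 in the second, a range of 0.15 and 0.33. Cdc20-depleted cells formed a hump, with 11.02 at 200 min and 10.48 on the last array of the first culture, and 10.62 at 240 min and 10.18 on the last array of the second.

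**Figure D1:**
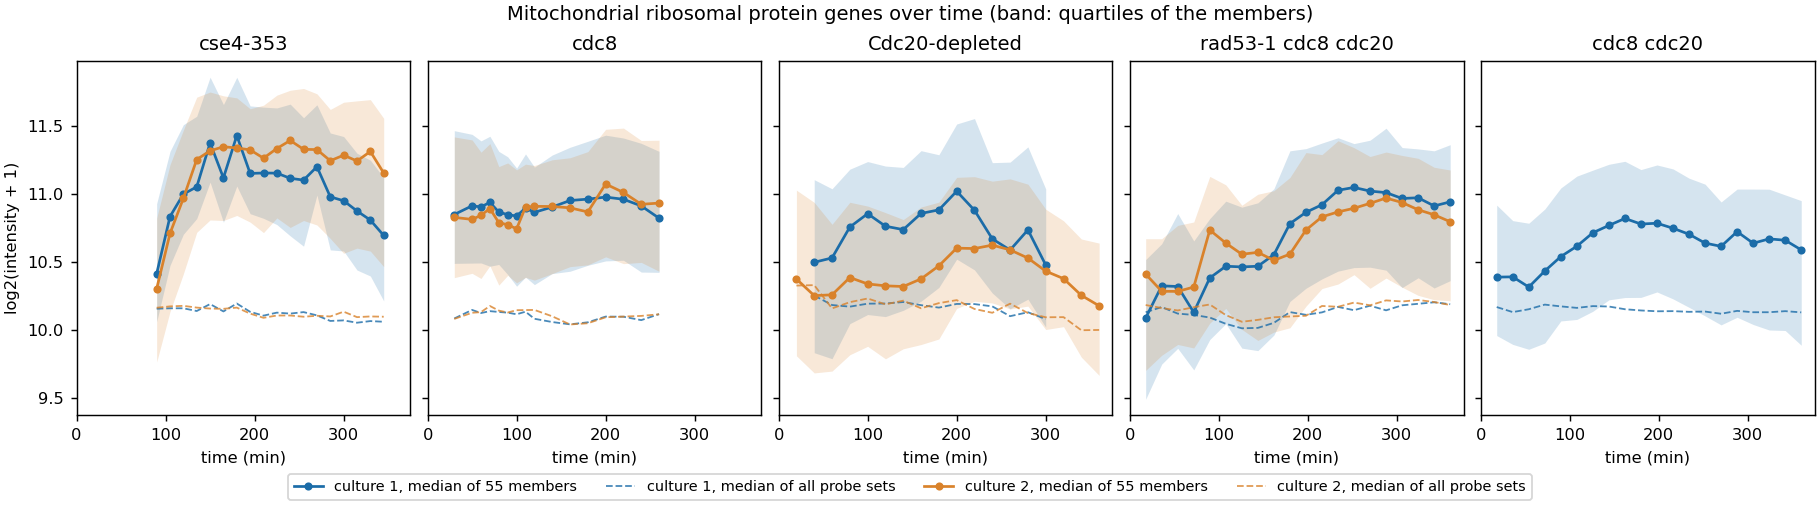
Median of the 55 mitochondrial ribosomal protein genes on each array (solid lines, with a band from the lower to the upper quartile of the members) and of all yeast probe sets (dashed lines), as log2(intensity + 1), against minutes after release, with 1 panel per strain and 1 colour per culture. The *cdc8* cultures stay within a range of 0.15 and 0.33, whereas the *rad53-1 cdc8 cdc20* and *cse4-353* cultures climb by 0.69 to 1.09 between their lowest and highest points.

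A single member had a median range over time, from its lowest to its highest array, of 1.16 and 0.95 in the *rad53-1 cdc8 cdc20* cultures and 0.60 in the *cdc8 cdc20* culture. The median over all yeast probe sets was 1.02 and 0.99, and 0.88. In *cse4-353* cells the members' median range was 1.07 and 1.12, against 0.98 and 0.81 over all probe sets. In *cdc8* cells it was 0.44 and 0.47, against 0.85 and 0.94, so that a typical member moved less than a typical probe set. In Cdc20-depleted cells it was 0.73 and 0.92, against 1.00 and 1.31. The members also kept together to different degrees. The median correlation of a member with the mean of the members over the arrays of 1 culture was 0.85 and 0.96 in *cse4-353* cells (18 arrays each), 0.56 and 0.71 in *cdc8* cells (16 arrays each) and 0.64 and 0.60 in Cdc20-depleted cells (14 and 18 arrays). It was 0.88 and 0.84 in *rad53-1 cdc8 cdc20* cells and 0.82 in *cdc8 cdc20* cells (20 arrays each). These are descriptions, since arrays of 1 culture share that culture and its trend.

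**Figure D2:**
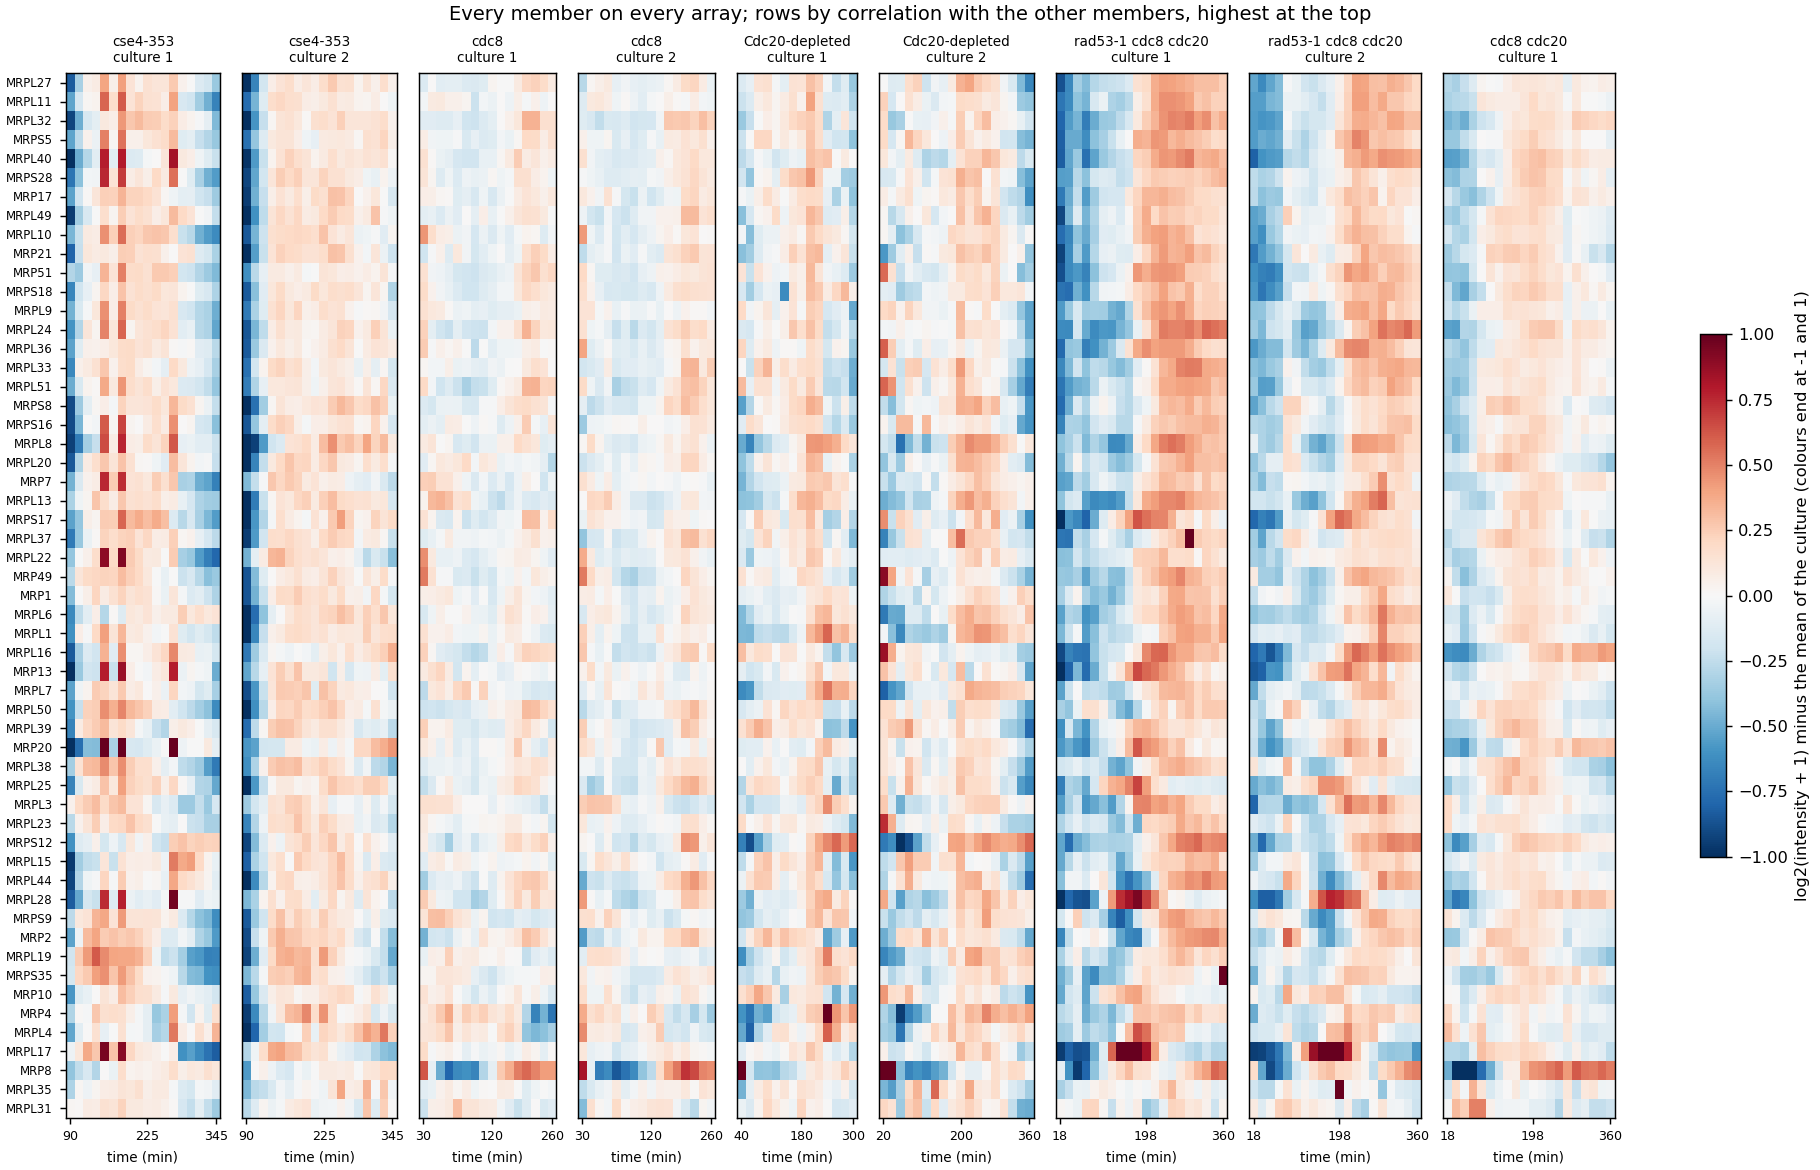
Log2(intensity + 1) of each of the 55 members (vertical axis, by correlation with the other members, highest at the top) on each of the 160 arrays (horizontal axis, minutes after release within each culture), minus the mean of that member in that culture. The median over the members is lowest at 18 and 54 min in the *rad53-1 cdc8 cdc20* cultures and at 90 min in the *cse4-353* cultures, and the 3 arrays of the first *cse4-353* culture that stood apart show as red columns at 150, 180 and 270 min.

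The first comparison asked how the members changed within each strain, from the mean of the first 3 shared time points to the mean of the arrest window. The change was tested per gene with limma over the 9 culture values, adjusted by the Benjamini-Hochberg method over all 5716 yeast probe sets with a threshold of 0.05. The p-values measure the spread between cultures, of which each strain had 2 or 1.

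In *rad53-1 cdc8 cdc20* cells the members rose almost as a body. Between 198 and 270 min, 46 of 55 were higher than between 18 and 54 min and 0 were lower by limma, where 26.5% and 30.9% of all yeast probe sets were called higher and lower. At an unadjusted p of 0.05, 47 were higher and 0 lower. Both subunits took part, with 14 of 17 small subunit genes and 31 of 37 large subunit genes, and 54 of the 55 members were higher in both cultures, as were 40.9% of all probe sets. The median change was 0.60 on the log2 scale, against -0.04 over all probe sets. *MRPL16*, of the large subunit, stood at 11.35 and 11.25 at the arrest, against 10.09 and 10.04 at the start, a change of 1.23 (SE 0.07, limma adjusted p = 1.6e-05). The arrest and start values did not overlap. *MRPL17*, also of the large subunit, stood at 10.51 and 10.79, against 9.43 and 9.48 (1.19, SE 0.12, limma adjusted p = 0.000121). *MRP13*, of the small subunit, stood at 11.12 and 11.13, against 9.91 and 10.01 (1.17, SE 0.12, limma adjusted p = 0.00011). *MRPL28*, of the large subunit, stood at 10.47 and 10.69, against 9.29 and 9.49 (1.18, SE 0.10, limma adjusted p = 4.75e-05), and it had a crest within the course. Its intensity was 582 and 789 at 18 min, 2217 and 2054 at 180 min and 1136 and 1113 at 360 min in the 2 cultures. *MRPL17* crested at the same time and higher, with 658 and 694 at 18 min, 3311 and 3529 at 180 min and 1041 and 896 at 360 min, so that its level in the arrest window is that of the way down. All of these calls held whichever culture was left out.

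In the *cdc8 cdc20* culture, of 55 members 21 were higher at the arrest and 0 were lower by limma (26 and 0 at an unadjusted p of 0.05), against 24.3% and 28.2% of all probe sets, and 50 were above 0, as were 45.9% of all probe sets. The strain had 1 culture, so these calls rest on the spread between the cultures of the other strains, and the count ran from 17 to 36 with 1 of those left out. The median was 0.37, against -0.06 over all probe sets. The member that moved most was *MRP8*, a gene of unknown function, which stood at 13.26 at the arrest, against 11.71 at the start (1.55, SE 0.11, limma adjusted p = 4.02e-05). *MRPL16* stood at 10.92, against 10.05 (0.87, SE 0.11, limma adjusted p = 0.000364). *MRPL28* stood at 10.05, against 9.18 (0.86, SE 0.14, limma adjusted p = 0.00127), with 1004 intensity units at 180 min and 1032 at 360 min. *MRPL17* had 702 at 18 min, 996 at 180 min and 721 at 360 min, a low crest at the same time. *MRPL40*, a large subunit gene, stood at 9.94, against 9.18 (0.75, SE 0.10, limma adjusted p = 0.000658). The count of 36 was reached without the first and without the second *cse4-353* culture.

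In *cse4-353* cells, 37 members were higher between 255 and 330 min than between 90 and 120 min and 1 was lower, against 29.1% and 32.9% of all probe sets. These were 14 of 17 small subunit genes and 22 of 37 large subunit genes, with *MRP8*, and the median was 0.39, against -0.04 over all probe sets. *MRPL8*, of the large subunit, stood at 11.43 and 11.16 at the arrest, against 10.69 and 9.94 at the start (0.98, SE 0.12, limma adjusted p = 0.000261). *MRPS8*, of the small subunit, stood at 10.91 and 11.37, against 10.34 and 10.32 (0.81, SE 0.12, limma adjusted p = 0.000692). *MRPL6*, of the large subunit, stood at 10.95 and 11.19, against 10.48 and 10.18 (0.74, SE 0.13, limma adjusted p = 0.00137). In each of these the arrest values lay above both start values. *MRP20*, another large subunit gene, stood at 10.19 and 9.70, against 9.24 and 9.08 (0.78, SE 0.10, limma adjusted p = 0.000278), and its change was 0.68 without the array at 270 min. *MRPL17*, which rose in *rad53-1 cdc8 cdc20* cells, was the member that fell, with 9.71 and 9.94 at the arrest, against 10.26 and 10.10 at the start (-0.36, SE 0.12, limma adjusted p = 0.0311), and the call was lost without the first *cse4-353* culture and without the first or the second *cdc8* culture. The cultures differed in size, with a median change of 0.15 in the first and 0.56 in the second. In both cultures 41 members were higher, as were 37.6% of all probe sets. The 4 galactose genes measured also rose in both, with a median change of 0.36 in the first culture and 1.00 in the second. The part of the medium in the members' rise was not tested. Without the second culture 21 members were higher and 5 lower, and without the array at 270 min of the first 32 members were called.

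Cdc20-depleted cells gave a mixed picture. Between 200 and 280 min 23 members were higher than between 40 and 80 min and 2 were lower, against 31.4% and 31.1% of all probe sets, with a median of 0.23, against 0.00. *MRPS12*, which encodes the protein of the decoding centre, stood at 12.11 and 12.15 at the arrest, against 10.99 and 10.89 at the start (1.19, SE 0.08, limma adjusted p = 2.78e-05). *MRP4*, of the small subunit, stood at 10.38 and 10.51, against 9.32 and 9.50 (1.03, SE 0.12, limma adjusted p = 0.000196). *MRPL8* stood at 10.49 and 10.53, against 9.61 and 9.64 (0.88, SE 0.12, limma adjusted p = 0.000397). None of these overlapped between arrest and start, and neither did the large subunit gene *MRPL1*, with 10.32 and 10.31, against 9.54 and 9.47 (0.81, SE 0.15, limma adjusted p = 0.00201). The members that fell were *MRPL39* (-0.33, SE 0.09, limma adjusted p = 0.0114), with 11.76 and 11.50 at the arrest, against 12.20 and 11.73 at the start, which overlap, and *MRPL16* (-0.27, SE 0.07, limma adjusted p = 0.0127), with 10.63 and 10.52, against 10.95 and 10.73. *MRPL16* thus fell in this strain and rose in 3 others. Both of these calls were lost without the first culture, and that of *MRPL16* also without the second. Without the first culture 9 members were called and without the second 11, and over the last 5 time points in place of the arrest window 14 were higher and 10 lower.

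The fewest members moved in *cdc8* cells. Between 180 and 260 min 6 were higher than between 30 and 60 min and 1 was lower, against 22.6% and 23.8% of all probe sets, and the median was 0.06, against -0.02. The largest rises were in *MRP8* (13.19 and 13.21 at the arrest, against 12.72 and 12.66 at the start; 0.51, SE 0.08, limma adjusted p = 0.00127), in the small subunit gene *MRP2* (11.92 and 11.83, against 11.47 and 11.27; 0.50, SE 0.12, limma adjusted p = 0.0101), in *MRPL44* (11.37 and 11.36, against 10.98 and 10.75; 0.50, SE 0.11, limma adjusted p = 0.00827) and in *MRPL32* (10.84 and 10.79, against 10.49 and 10.36; 0.39, SE 0.09, limma adjusted p = 0.0083). *MRP4* fell, with 10.11 and 10.27 at the arrest, against 10.70 and 10.78 at the start (-0.55, SE 0.12, limma adjusted p = 0.00719). Only the *MRP8* call held whichever culture was left out. The start level of *MRP8* averages over an early fall, given below, so this call does not show a rise above the first array. The count was 2 without the first *cdc8* culture, 1 without the second, and 16 without the first or the second *cse4-353* culture.

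**Figure D3:**
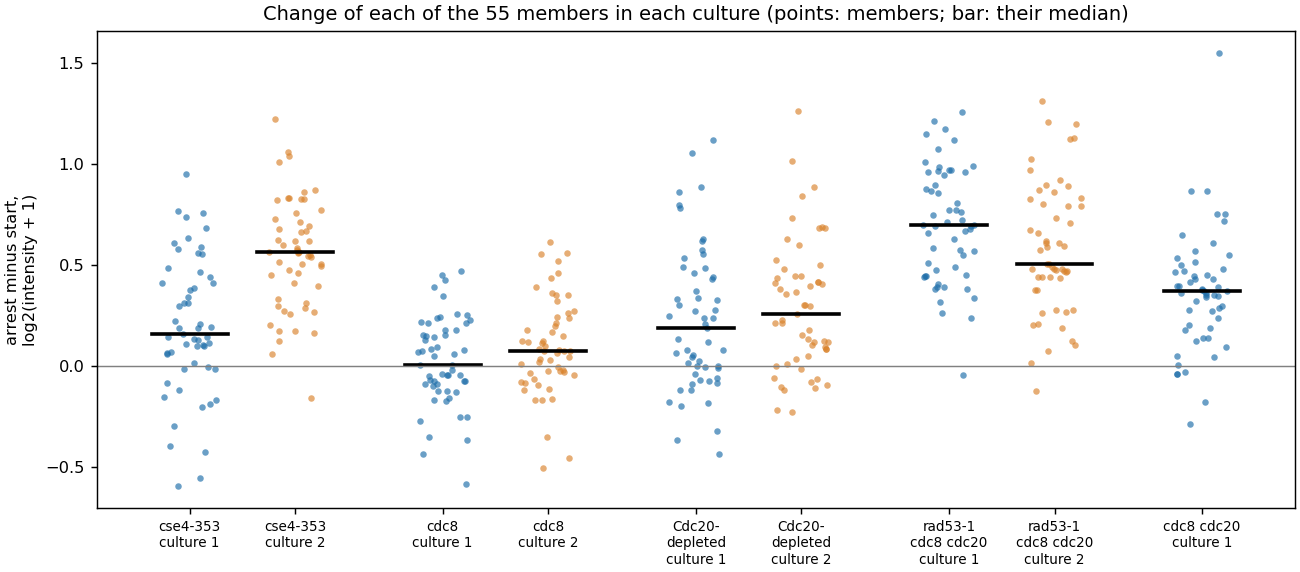
Change of each of the 55 members in each culture, as the mean log2(intensity + 1) in the arrest window minus that at the start, with 1 point per member and a bar at their median. The median is 0.69 and 0.51 in the *rad53-1 cdc8 cdc20* cultures, 0.37 in the *cdc8 cdc20* culture and 0.00 and 0.07 in the *cdc8* cultures.

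Counted over strains, 3 members rose in all 5, 5 in 4, 18 in 3, 18 in 2, 8 in 1 and 3 in 0. Over all yeast probe sets the shares were 4.76%, 6.58%, 10.4%, 14.8%, 23.1% and 40.4% in the same order. The members that rose in all 5 strains were *MRPS12*, *MRPL32* and *MRPL49*. *MRPL32* changed by 0.93 in *rad53-1 cdc8 cdc20* cells, 0.61 in *cdc8 cdc20* cells, 0.68 in *cse4-353* cells, 0.39 in *cdc8* cells and 0.32 in Cdc20-depleted cells. *MRPS12* had the steepest rise in Cdc20-depleted cells, and its changes elsewhere were 0.84 in *rad53-1 cdc8 cdc20* cells, 0.75 in *cdc8 cdc20* cells, 0.51 in *cse4-353* cells and 0.24 in *cdc8* cells. The 3 members that were called higher in no strain were *MRPL31*, *MRPL38* and *MRPL50*, all of the large subunit. *MRPL31* had changes of -0.09, -0.29, 0.01, -0.05 and 0.06 in the same order of strains, and its mean over the strains, -0.07, was the only negative one of the 55. *MRPL23* and the small subunit gene *MRP10* came next, with means of 0.07 and 0.09.

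The next comparison asked whether the level at the spindle checkpoint arrest differed from that of Cdc20-depleted cells, which stop at a like stage. In *cse4-353* cells 27 members were higher and 1 was lower by limma, against 17.7% and 27.1% of all probe sets, and the median difference was 0.42, against -0.14 over all probe sets. These were 9 of 17 small subunit genes and 17 of 37 large subunit genes that were higher, with *MRP8*. *MRPL4* stood at 10.73 and 10.01 in *cse4-353* cells, against 9.07 and 9.10 in Cdc20-depleted cells (1.28, SE 0.21, limma adjusted p = 0.00313). *MRPL15* stood at 10.65 and 10.74, against 9.61 and 9.39 (1.20, SE 0.13, limma adjusted p = 0.000673). *MRPL16* stood at 11.69 and 11.60, against 10.63 and 10.52 (1.07, SE 0.11, limma adjusted p = 0.000469). In these 3 large subunit genes the cultures of the strains did not overlap, nor did they in the small subunit gene *MRPS5*, with 11.06 and 11.22, against 10.23 and 10.09 (0.98, SE 0.11, limma adjusted p = 0.000771). *MRPL17* was lower, with 9.71 and 9.94, against 10.35 and 10.33 (-0.52, SE 0.14, limma adjusted p = 0.0234), a call lost without the first *cse4-353* culture or without 1 of the Cdc20-depleted cultures. Over all members, the cultures of the strains did not overlap in 38 cases, 34 of them higher and 4 lower in *cse4-353* cells, against 26.3% and 42.3% of all probe sets. The 4 galactose genes measured were all higher in *cse4-353* cells, by a median of 5.78, and 31 of 34 respiratory chain and ATP synthase genes were higher by a median of 0.79. The part of the medium in the members' difference was not tested. Without the first Cdc20-depleted culture 17 members were called, without the second 9, without the first or the second *cdc8* culture 18, and without the *cse4-353* array at 270 min 26.

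Set beside the same Cdc20-depleted cells, *cdc8* cells at the replication checkpoint had 17 members higher and 2 lower by limma, against 19.1% and 33% of all probe sets. The median difference was 0.30, against -0.16. *MRP8* led, with 13.19 and 13.21 in *cdc8* cells, against 11.85 and 11.72 in Cdc20-depleted cells (1.41, SE 0.12, limma adjusted p = 0.000164). *MRP17*, of the small subunit, stood at 11.49 and 11.55, against 10.68 and 10.55 (0.91, SE 0.12, limma adjusted p = 0.0011). *MRPL28* stood at 10.49 and 10.58, against 9.65 and 9.60 (0.91, SE 0.20, limma adjusted p = 0.00746). In each of these a difference was already there at the start. *MRP8* began at 12.72 and 12.66, against 11.93 and 11.82, *MRP17* at 11.44 and 11.48, against 10.69 and 10.46, and *MRPL28* at 10.43 and 10.51, against 9.10 and 8.98. *MRP20* stood at 9.85 and 9.88, against 8.89 and 9.04 (0.90, SE 0.17, limma adjusted p = 0.00391). It too differed at the start, with 9.85 and 9.95, against 8.65 and 8.83. The median level of the 55 members at the start was 10.87 and 10.79 in *cdc8* cells, against 10.55 and 10.30 in Cdc20-depleted cells. The lower members, both of the large subunit, were *MRPL31* at 11.88 and 12.02, against 12.33 and 12.58 (-0.50, SE 0.18, limma adjusted p = 0.0471), and *MRPL36* at 11.44 and 11.42, against 12.02 and 11.71 (-0.44, SE 0.14, limma adjusted p = 0.0338). Respiratory chain and ATP synthase genes went the other way, with 0 of 34 higher and 21 lower. Both lower calls were lost when a culture was left out and under quantile normalization, which gave 21 higher and 0 lower. The count was 10 without the second Cdc20-depleted culture, 8 and 9 without the first and the second *cdc8* culture, and 32 without the first or the second *cse4-353* culture.

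**Figure D4:**
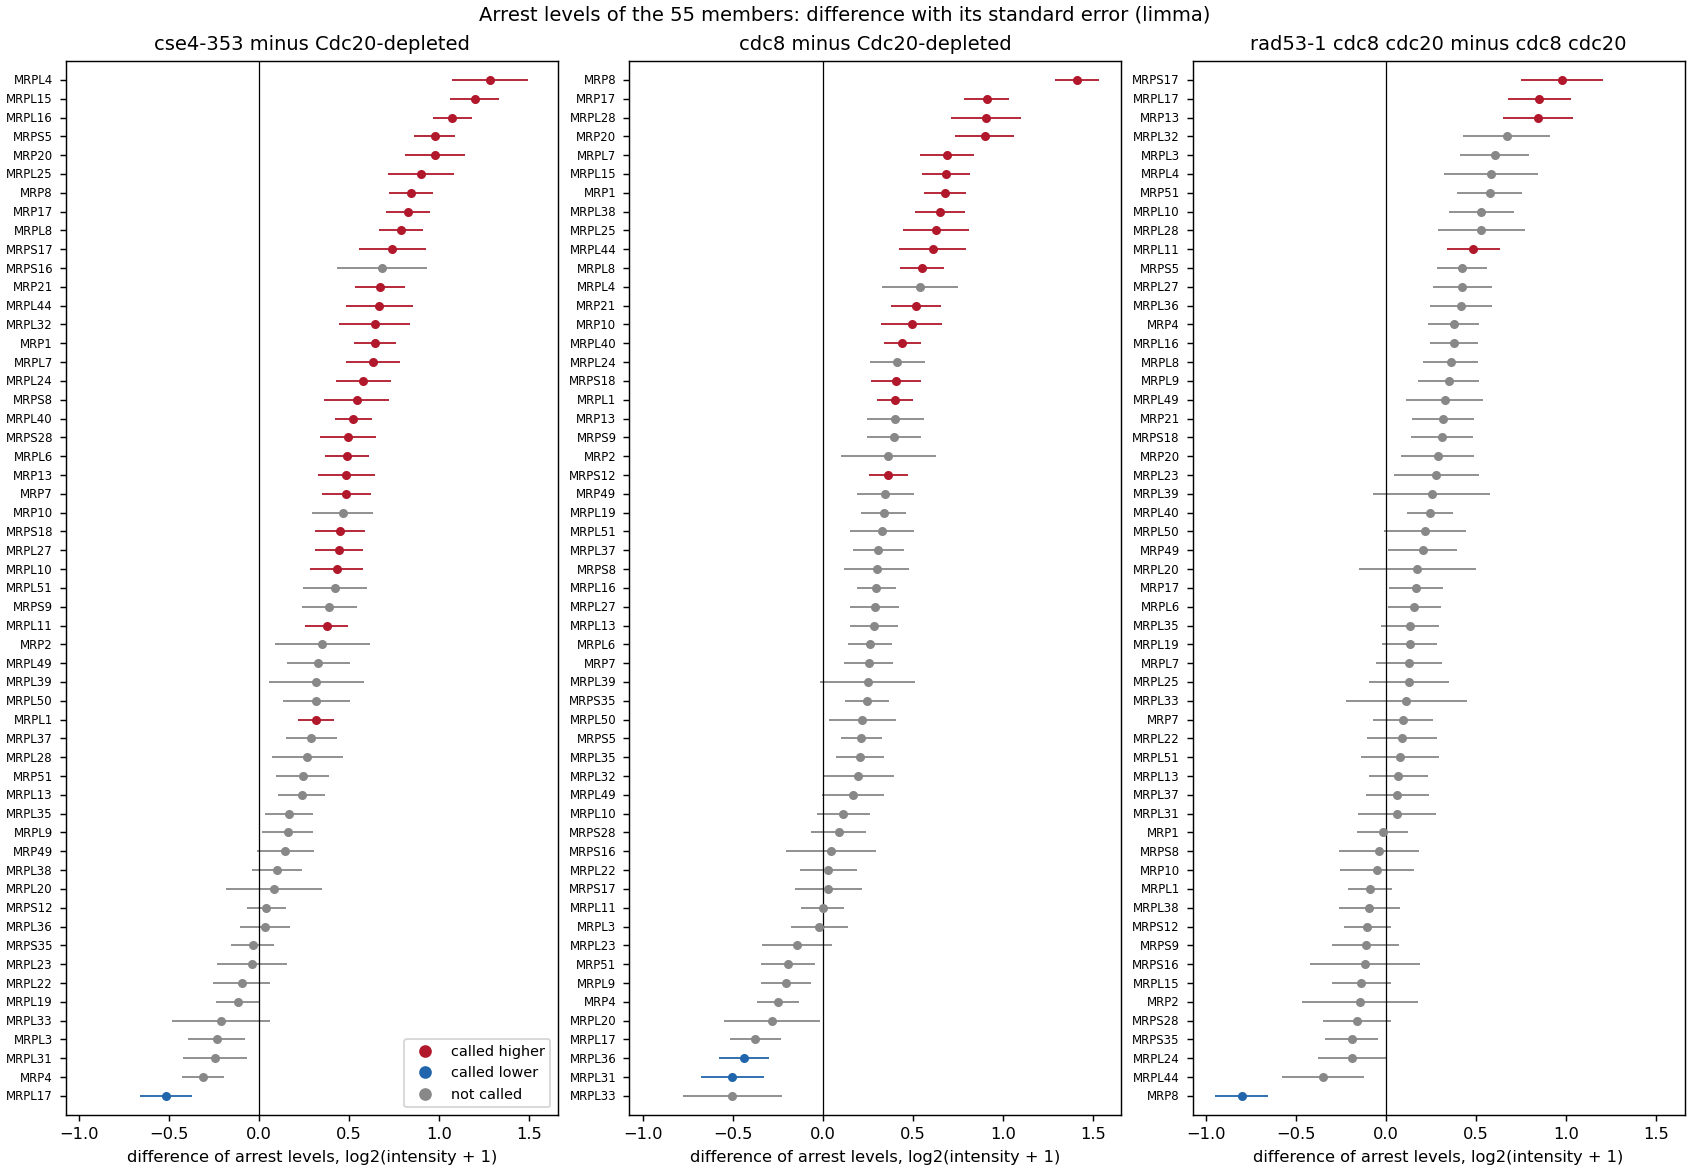
Difference of the arrest level of each of the 55 members (vertical axis, by size) in log2(intensity + 1) with its standard error from limma, for *cse4-353* minus Cdc20-depleted, *cdc8* minus Cdc20-depleted and *rad53-1 cdc8 cdc20* minus *cdc8 cdc20* cells, with members called higher in red and called lower in blue. In *cse4-353* cells 27 members are called higher, in *cdc8* cells 17 and in *rad53-1 cdc8 cdc20* cells 4.

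Loss of Rad53 activity was read at the same clock times, from 198 to 270 min, in *rad53-1 cdc8 cdc20* and *cdc8 cdc20* cells. Only 4 members were higher and 1 was lower by limma, against 12.6% and 11.7% of all probe sets, and the median difference was 0.17, against 0.03. *MRPS17*, of the small subunit, stood at 11.30 and 11.44 in *rad53-1 cdc8 cdc20* cells, against 10.39 in *cdc8 cdc20* cells (0.98, SE 0.23, limma adjusted p = 0.021). *MRPL17* stood at 10.51 and 10.79, against 9.79 (0.85, SE 0.18, limma adjusted p = 0.0139), and *MRP13* at 11.12 and 11.13, against 10.28 (0.85, SE 0.19, limma adjusted p = 0.0202). The strains had begun alike in these genes, with 10.15 and 10.31, against 10.15, for *MRPS17* and 9.43 and 9.48, against 9.45, for *MRPL17*. *MRPL11*, of the large subunit, stood at 10.53 and 10.53, against 10.04 (0.48, SE 0.15, limma adjusted p = 0.0497). *MRP8* was lower, with 12.35 and 12.57, against 13.26 (-0.80, SE 0.15, limma adjusted p = 0.00934), and 9 of 19 genes of the environmental stress response were also lower. Ribosome biogenesis genes were higher in 39 of 55 cases. None of the 5 named calls held under the omission of each culture in turn. The count was 1 without the first or the second *rad53-1 cdc8 cdc20* culture, 17 without the first or the second *cse4-353* culture, and 0 over the last 5 time points, where 11 were higher and 1 lower at an unadjusted p of 0.05.

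The changes over the course were then compared between strains. In *rad53-1 cdc8 cdc20* cells 5 members changed more and 1 changed less than in *cdc8 cdc20* cells, against 15.3% and 15.9% of all probe sets, while 52 of 55 differences were above 0, as were 3003 of the 5716 over all probe sets, and the median was 0.26, against 0.03. *MRPS17* changed by 1.15 and 1.13 in *rad53-1 cdc8 cdc20* cells, against 0.23 in *cdc8 cdc20* cells (difference 0.90, SE 0.26, limma adjusted p = 0.0337). *MRP8* changed by 0.57 and 0.47, against 1.55 (difference -1.03, SE 0.13, limma adjusted p = 0.00144), and this was the only named call kept whichever culture was left out. The count was 2 and 1 without the first and the second *rad53-1 cdc8 cdc20* culture, 3 without any single Cdc20-depleted or *cdc8* culture, 21 without the first or the second *cse4-353* culture, and 3 with the replicate number as a block.

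Between *cse4-353* and Cdc20-depleted cells, 11 members changed more and 7 less, against 22.5% and 24.3% of all probe sets, with a median difference of 0.22, against -0.03, and quantile normalization gave 13 and 5. *MRPL16* changed by 0.56 and 0.54 in *cse4-353* cells, against -0.33 and -0.22 in Cdc20-depleted cells (difference 0.82, SE 0.11, limma adjusted p = 0.000768). *MRPS12* changed by 0.44 and 0.57, against 1.12 and 1.26 (difference -0.68, SE 0.11, limma adjusted p = 0.0022). In both genes the cultures of the strains lay apart. The count was 6 and 7 without the first and the second Cdc20-depleted culture and 29 without the first *cse4-353* culture.

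Between *cdc8* and Cdc20-depleted cells, 4 members changed more and 14 less, against 22.3% and 21.9% of all probe sets, with a median difference of -0.11, against 0.01. *MRP4* differed most, with changes of -0.59 and -0.50 in *cdc8* cells, against 1.05 and 1.01 in Cdc20-depleted cells (difference -1.58, SE 0.17, limma adjusted p = 0.000521). *MRPL8* changed by -0.02 and -0.03, against 0.88 and 0.88 (difference -0.91, SE 0.17, limma adjusted p = 0.00427), having begun at 11.10 and 11.06 in *cdc8* cells, against 9.61 and 9.64 in Cdc20-depleted cells. *MRPL4* shared this form, with changes of -0.44 and -0.35, against 0.80 and 0.60. The count was 7 and 11 without the first and the second Cdc20-depleted culture and 7 without the first or the second *cdc8* culture, and over the last 5 time points the median difference was 0.12 in place of -0.11.

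Periodic behaviour was scored in the strains with 2 cultures by a Lomb-Scargle periodogram on the linear scale, over 13 time points from the start of each course and at a test period of 147.8 min and with a lenient p of at most 0.5 in both cultures. This period lies in the range that the paper took for Cdc20-depleted cells, and it was applied here to every strain. For *rad53-1 cdc8 cdc20* cells the paper took a wider range of periods, so the counts of that strain rest on another criterion. Of the 55 members 5 passed in *cse4-353* cells, 20 in *cdc8* cells, 11 in *rad53-1 cdc8 cdc20* cells and 0 in Cdc20-depleted cells. Over all yeast probe sets the shares were 6.77%, 57.3%, 13.5% and 4.29%. In *cdc8* cells most of the array passed. The 13 time points ran from 30 to 200 min in *cdc8* cells and from 90 to 270 min in *cse4-353* cells, little more than the test period. They ran from 18 to 234 min in *rad53-1 cdc8 cdc20* cells and from 40 to 280 and 20 to 260 min in the Cdc20-depleted cultures. Counts and shares of different strains are therefore not on like terms, and the part of the span in them was not tested. No member passed in more than 2 strains, and 22 passed in none. Over all yeast probe sets 34.2% passed in none, 9.66% in 2, 2.38% in 3 and 0.577% in 4. The calls of *cse4-353* cells were *MRP4*, *MRP7*, *MRPL17*, *MRPL22* and *MRPS35*, and 0 members were called once the 3 arrays that stood apart in the first culture were left out. The score does not separate a wave from a drift. Removal of a linear trend does not settle this, since a straight line does not take away a rise that levels off. The members' median in the second *cse4-353* culture was 10.30 at 90 min, 11.31 at 150 min and 11.32 at 270 min. With a linear trend removed and the 3 arrays kept, 43 members passed in *cse4-353* cells and 34 in *rad53-1 cdc8 cdc20* cells. The shares of all probe sets were 23.3% and 42.7%. Without that step each Cdc20-depleted culture alone gave 1.

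Within the group, most members shared a profile and a few did not. Over the 160 arrays, with each culture centred, the correlation of a member with the mean of the other members had a median of 0.77. It lay above 0.8 for 21 members and below 0.5 for 7. *MRPL27* was closest to the rest (0.93), followed by *MRPL11* (0.92) and *MRPL32* (0.90). *MRPL31* was farthest (0.049), followed by *MRPL35* (0.33), *MRP8* (0.35), *MRPL17* (0.38), *MRPL4* (0.43), *MRP4* (0.48) and *MRP10* (0.50, just under the bound). The value of *MRPL35* takes in an array far from the rest of its culture, given below, and its part in this value was not tested. The arrays share cultures, so these values carry no test. The members that moved farthest over time were *MRP8*, with a median range over cultures of 1.54 on the log2 scale, *MRPS12* (1.19) and *MRPL44* (1.11). The narrowest were *MRP1* (0.54), *MRPL31* (0.58) and *MRPS35* (0.60).

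*MRP8* followed a course unlike that of the ribosomal members. Its intensity in the *cdc8* cultures was 10257 and 11305 at 30 min, 3840 and 4109 at 70 min and 9918 and 10496 at 200 min. In the Cdc20-depleted cultures it was 7881 and 8783 at 40 min, 2555 and 2134 at 80 min and 3587 and 3433 at 200 min. The early fall was common to both strains, and the return was fuller in *cdc8* cells. In the *cdc8 cdc20* culture it was 4981 at 18 min, 2731 at 54 min and 10444 at 252 min, and in the *rad53-1 cdc8 cdc20* cultures it was 4821 and 6584 at 18 min, 2644 and 3126 at 54 min and 4811 and 5989 at 252 min. *MRPL31* lay between 3274 and 5084 on the arrays of *cdc8* cells. *MRPL16* had 1080 at 18 min, 1051 at 54 min, 1611 at 162 min and 2146 at 360 min in the *cdc8 cdc20* culture, with its highest value, 11.09 on the log2 scale, at 342 min.

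**Figure D5:**
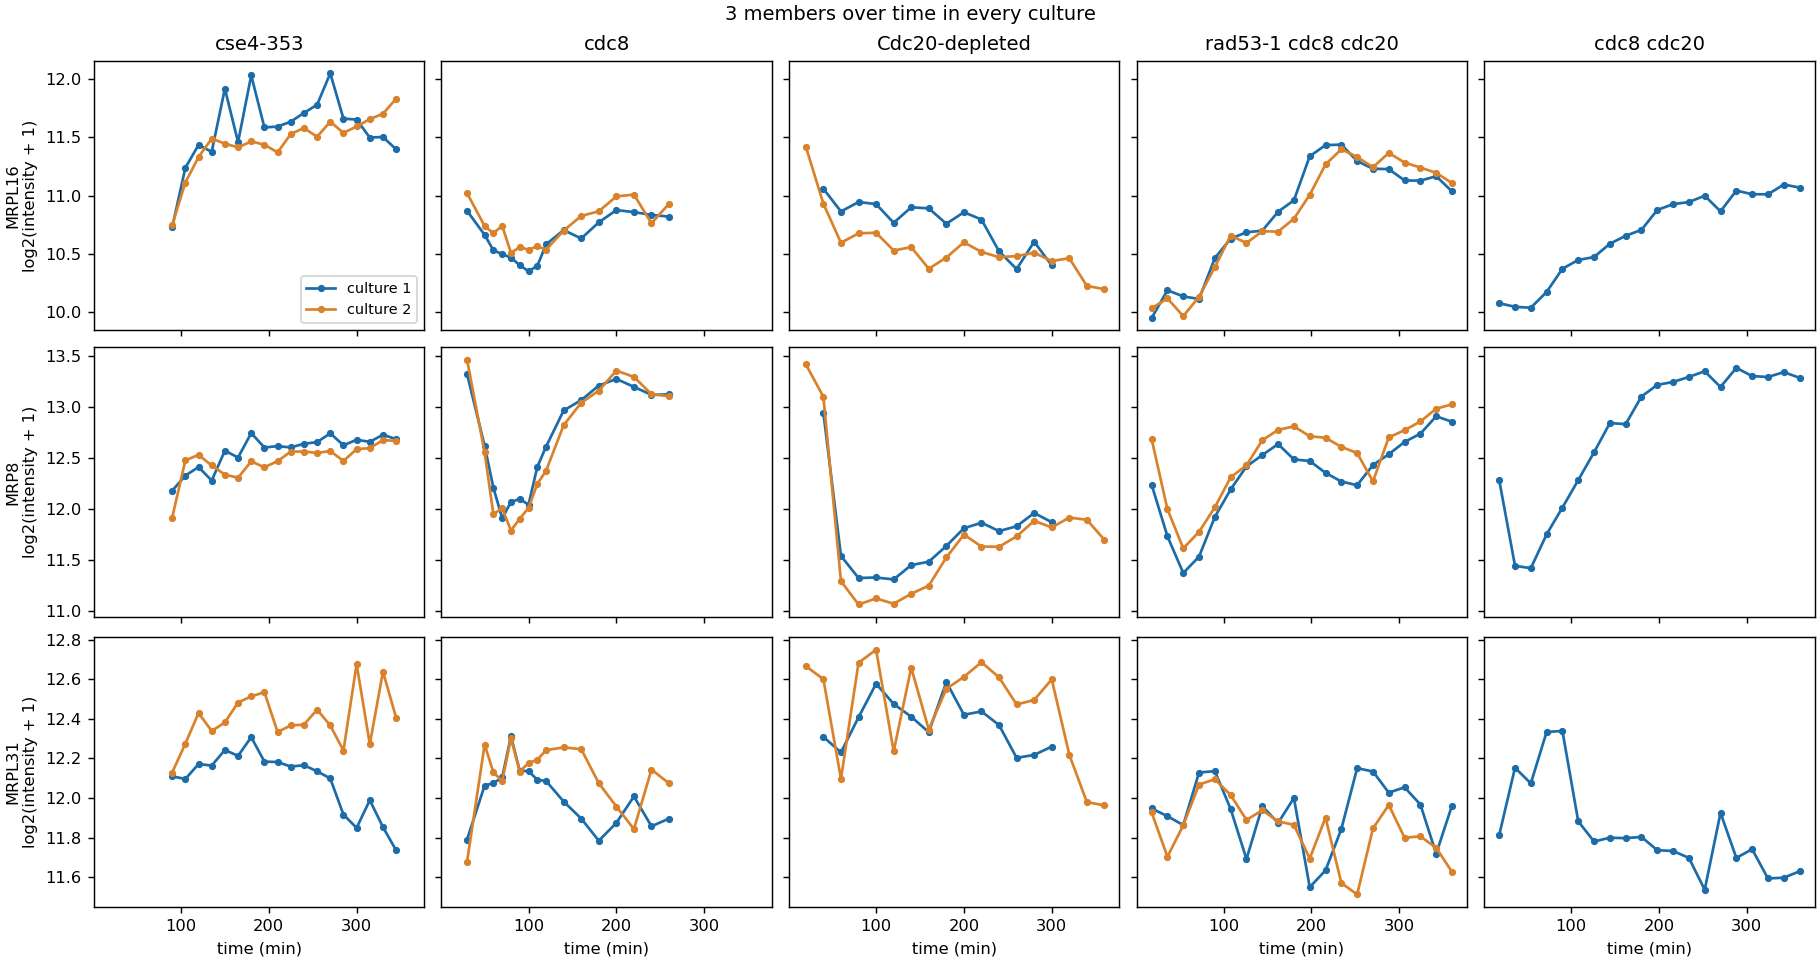
Log2(intensity + 1) of *MRPL16*, *MRP8* and *MRPL31* on every array against minutes after release, by culture. *MRPL16* climbs by 1.23 in *rad53-1 cdc8 cdc20* cells, *MRP8* falls early and then rises to over 13 at the arrest of *cdc8* and *cdc8 cdc20* cells, and *MRPL31* shows neither course (each gene has its own vertical scale).

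The 25 mitoribosome genes under other names gave counts in the same direction as the members in most comparisons. In the change over the course, 20 were higher and 0 lower in *rad53-1 cdc8 cdc20* cells, 9 and 0 in *cdc8 cdc20* cells, 15 and 0 in *cse4-353* cells, 10 and 3 in Cdc20-depleted cells and 1 and 2 in *cdc8* cells. Their median changes were 0.60, 0.29, 0.35, 0.21 and 0.03 on the log2 scale. Over all yeast probe sets, 26.5%, 24.3%, 29.1%, 31.4% and 22.6% were called higher in that order of strains. The shares called lower were 30.9%, 28.2%, 32.9%, 31.1% and 23.8%. *RSM19*, of the small subunit, changed by 1.22 in *rad53-1 cdc8 cdc20* cells and by 1.41 in *cse4-353* cells. *RML2*, of the large subunit, rose by 1.21 in Cdc20-depleted cells. At the arrest 13 of the 25 were higher in *cse4-353* cells than in Cdc20-depleted cells, with *PET123* at a difference of 1.31, and 14 were higher in *cdc8* cells, with *MHR1* at 1.28. The shares of all probe sets called higher were 17.7% and 19.1%.

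Genes that serve mitochondrial translation from outside the ribosome, such as the synthetases that charge mitochondrial tRNAs, the elongation factors and the activators of single messages, were less uniform. Of 40, 10 were higher and 9 lower over the course in *rad53-1 cdc8 cdc20* cells, 13 and 3 in *cdc8 cdc20* cells, 15 and 8 in *cse4-353* cells, 21 and 5 in Cdc20-depleted cells and 8 and 8 in *cdc8* cells. Over all probe sets, 26.5%, 24.3%, 29.1%, 31.4% and 22.6% were called higher in that order, and 30.9%, 28.2%, 32.9%, 31.1% and 23.8% lower. The counts in *rad53-1 cdc8 cdc20* and *cdc8* cells were thus near those of the whole array. *TUF1* (2.04), which encodes the mitochondrial elongation factor Tu, *MEF2* (1.71), which encodes a relative of elongation factor G, and *MSS51* (1.63), which encodes the activator of *COX1* translation, were the largest rises in Cdc20-depleted cells. *MEF2* also rose in *rad53-1 cdc8 cdc20* (1.81), *cdc8 cdc20* (1.83) and *cdc8* cells (0.94).

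Ribosome biogenesis genes fell in most cases. Of 55, 35 were lower and 0 higher over the course in *rad53-1 cdc8 cdc20* cells, 55 and 0 in *cdc8 cdc20* cells, 52 and 0 in *cse4-353* cells, 42 and 0 in *cdc8* cells and 54 and 1 in Cdc20-depleted cells. The shares of all probe sets called lower were 30.9%, 28.2%, 32.9%, 23.8% and 31.1% in the same order of strains. Of 142 probe sets for cytosolic ribosomal proteins, many of them near-identical paralogs that the array may not tell apart, 37, 51, 56, 31 and 16 were lower and 1, 0, 0, 0 and 2 were higher in that order, numbers to be read against the same shares. Genes of the environmental stress response, 19 in number, were higher in 11, 17, 15, 12 and 5 cases and lower in 2, 0, 0, 1 and 8. The shares of all probe sets called higher were 26.5%, 24.3%, 29.1%, 22.6% and 31.4% in that order. The part of the stress genes in the members' changes was not tested.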

How the data were processed

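The deposited files held an intensity per probe set on a linear scale, from Affymetrix Yeast 2.0 arrays. The authors had normalized the arrays by invariant set and summarized them by the Li-Wong (dChip) model in affy 1.32.1, without background correction, with perfect-match probes and together with arrays not analysed here. Of 5900 probe sets, 184 controls were left out; of the remaining 5716, 5498 carried a symbol, 12 of them updated through RefSeq's gene table, which also gave the protein names. No sequence was used here. A pseudocount of 1 was added before log2. The number of cultures per strain limits the precision of the tests, and intensity over background limits that of single values.

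Cultures were the replicates. Levels were means over the arrest windows, and changes were these minus the mean of the first 3 shared time points. All 9 cultures entered 1 fit of strain means, with 4 residual degrees of freedom, by limma 3.58.1 in R 4.3.3, which was checked on simulated data. The periodogram and other values came from Python 3.11.15 with scipy 1.17.1, pandas 2.3.3, numpy 2.4.6 and matplotlib 3.10.9. The replicate numbers do not pair cultures.

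Alternatives were the last 5 time points or 180 to 260 min in all strains as the window, the first 2 time points as the start, quantile normalization, a pseudocount of 32, a filter on dim probe sets, only the strains compared, the replicate number as a block, each culture left out in turn and, for periodicity, log2 values and removal of a linear trend. Omission of single arrays was added after the data were seen. The members and lists were chosen with earlier results of these data known. Named were up to 4 called members of largest difference in each direction per comparison, *MRP8*, the 3 of widest and of narrowest range, the 3 lowest mean changes and the 10 nearest profiles outside the group, with up to 3 called examples per other list. The crests of *MRPL28* and *MRPL17*, the course of *MRP8* and the members called in all or no strains were described after their values were seen.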

Additional observations from a re-analysis of the deposited data

Results flagged for a closer look

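The change over the course differed between strains in 18 members for *cse4-353* minus Cdc20-depleted cells, in 18 for *cdc8* minus Cdc20-depleted cells and in 6 for *rad53-1 cdc8 cdc20* minus *cdc8 cdc20* cells, each by a limma test of the difference itself. Comparisons with Cdc20-depleted cells share these cultures.

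The members of largest difference were as follows, all on the log2 scale. In *cse4-353* minus Cdc20-depleted cells, *MRPL16* differed by 0.82, *MRPL44* by 0.75, *MRPL15* by 0.69 and *MRP10* by 0.64, whereas *MRP4* differed by -0.69, *MRPS12* by -0.68, *MRPL3* by -0.61 and *MRPL17* by -0.57. Of these 8 calls, those of *MRPL16*, *MRPL15* and *MRPS12* held whichever culture was left out. In *cdc8* minus Cdc20-depleted cells, *MRP8* differed by 0.60, *MRPL44* by 0.55, *MRP2* by 0.53 and *MRPL16* by 0.39, whereas *MRP4* differed by -1.58, *MRPL4* by -1.09, *MRPS12* by -0.95 and *MRPL8* by -0.91. Here 5 of 8 calls held, those of *MRP8*, *MRP4*, *MRPL4*, *MRPS12* and *MRPL8*. In *rad53-1 cdc8 cdc20* minus *cdc8 cdc20* cells, *MRPS17* differed by 0.90, *MRPL17* by 0.85, *MRP13* by 0.81 and *MRPL3* by 0.77, whereas *MRP8* differed by -1.03, and of these 5 only the call of *MRP8* held.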

How the results depend on the processing

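Of 188 alternatives for the counts of members called, 133 stayed within 1.5 times the reported count and 55 did not. With each culture left out in turn, the counts for the level at the arrest ran from 9 to 37 in *cse4-353* minus Cdc20-depleted cells, from 8 to 32 in *cdc8* minus Cdc20-depleted cells and from 1 to 17 in *rad53-1 cdc8 cdc20* minus *cdc8 cdc20* cells. For the change over the course they ran from 31 to 51 in *rad53-1 cdc8 cdc20*, 17 to 36 in *cdc8 cdc20*, 26 to 44 in *cse4-353*, 1 to 16 in *cdc8* and 9 to 30 in Cdc20-depleted cells. For the difference in change they ran from 6 to 29, 7 to 25 and 1 to 21 in the same order of comparisons as the levels. For periodicity, each culture alone gave 7 and 16 in *cse4-353*, 25 and 31 in *cdc8*, 12 and 20 in *rad53-1 cdc8 cdc20* and 1 and 1 in Cdc20-depleted cells. With only the strains compared, the counts for the level were 10, 32 and 14. Over the last 5 time points, the level of *rad53-1 cdc8 cdc20* minus *cdc8 cdc20* cells had 0 calls by limma (12 at an unadjusted p of 0.05), the change had 25 in *cse4-353* and 13 in *cdc8 cdc20* cells, and the difference in change had 28 for *cse4-353* minus Cdc20-depleted cells and 3 for *rad53-1 cdc8 cdc20* minus *cdc8 cdc20* cells. With 2 starting time points, the change in *cdc8* cells had 4. With a linear trend removed and all arrays kept, 43 members passed the periodicity score in *cse4-353*, 34 in *rad53-1 cdc8 cdc20* and 1 in Cdc20-depleted cells (23.3%, 42.7% and 7.31% of all probe sets). With the trend kept and without the 3 arrays that stood apart, 0 passed in *cse4-353* cells. Of 171 alternatives for the members' median, 2 turned its direction, both over the last 5 time points: the change in Cdc20-depleted cells to -0.0049, and *cdc8* minus Cdc20-depleted cells to 0.12. Of 965 alternatives for the 62 named values, 858 kept their side of the threshold and direction and 107 lost the call, 75 of them when a culture was left out. The cause of these changes was not tested.

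Replicate numbers do not pair the cultures: same-numbered deviations correlated between -0.28 and 0.21 for levels and between -0.03 and 0.19 for changes. With the number as a block, the counts for the level were 23, 17 and 5, those for the change 46, 22, 37, 8 and 26, and those for the difference in change 16, 19 and 3, where 6 stood without it. Leaving out the only *cdc8 cdc20* culture gives no value for its comparisons.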

Other observations

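Outside the group, the 10 probe sets whose log2 profile over the 160 arrays was closest to the mean of the members included 3 mitoribosome genes under other names, *PET123* (r = 0.85), *MHR1* (0.83) and *FYV4* (0.83). The nearest were *ATP11* (0.89), which encodes an assembly factor of the mitochondrial ATP synthase, *COX14* (0.87), a factor for cytochrome oxidase assembly, and *FMC1* (0.86), which also serves ATP synthase assembly. *COX17* (0.84), a copper chaperone for cytochrome oxidase, *MAM33* (0.81), *RDL2* (0.80) and *ATP12* (0.80), the partner of *ATP11*, made up the rest. The respiratory chain and ATP synthase genes themselves were less alike, with a median r of 0.25 over 34 genes, against 0.69 over the 25 mitoribosome genes under other names and -0.02 over all other yeast probe sets. The median was 0.30 for the 40 genes of mitochondrial translation, -0.27 for cytosolic ribosomal proteins and -0.37 for ribosome biogenesis.

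The profile of *MRP8* correlated at r = 0.94 with the mean of 19 environmental stress genes over the 160 arrays and at 0.35 with the other members, which correlated with the stress genes at 0.30. This is a description chosen after the values were seen.

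Some members had 1 array far from the rest of their culture. *MRPS35* had an intensity of 5024 at 360 min in the first *rad53-1 cdc8 cdc20* culture, against 566 to 1010 on the other 19 arrays. *MRPL35* had 5886 at 198 min in the second, against 1309 to 1897, and its change of 0.47 (limma adjusted p = 0.0147) was 0.30 (limma adjusted p = 0.0675) without that array. On the arrays at 150, 180 and 270 min of the first *cse4-353* culture, 45, 27 and 13 probe sets lay more than 0.9 on the log2 scale above both neighbours, where the median over 142 arrays was 1. These counts were not the highest. The array at 165 min of that culture had 76. In the second Cdc20-depleted culture, the arrays at 40 and 60 min, which enter the start level, had 14 and 17. On all 3 of the arrays at 150, 180 and 270 min, 10 probe sets lay so, and 1 was a member, *MRP20*.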
